A study of Homo sapiens with 6 samples.

Results

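Transcript levels of 10 genes of the cell-surface glycan system were examined in HEC-1B cells, a line derived from a human endometrioid carcinoma. They are the syndecans SDC1, SDC2, SDC3 and SDC4, the glypican GPC1, the sulfatases SULF1 and SULF2, the hyaluronan synthases HAS2 and HAS3, and the hyaluronan receptor CD44. They were taken by symbol, and 10 of 10 are among the 23284 genes listed for each library. The series holds 6 bulk RNA libraries in 3 groups of 2, titled by how cells passed between low and high states of the stem-cell marker aldehyde dehydrogenase (ALDH). The first group is HEC-1B labelled as having high ALDH potential, titled ALDH-high accel (called high-potential here). The second is HEC-1B without that label, also titled ALDH-high accel (called parental accelerated here). The third is HEC-1B without that label, titled ALDH-high to low (called high-to-low here); the last 2 are called the parental groups. The design text speaks of faster passage from ALDH1A1-low to ALDH1A1-high cells, followed by flow sorting. No label gives a treatment, a time or an allele, and all groups are 1 cell line. The sample descriptions carry the word ALDH-high for each of the 6 libraries, the high-to-low libraries included, so the groups rest on the titles. No high-potential high-to-low group was analysed here, so the label and the transition cannot be told apart where high-potential cells are compared with high-to-low cells.

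Syndecans are transmembrane core proteins, and glypicans are cores held by a lipid anchor. Both carry heparan sulfate, a sulfated sugar chain that binds growth factors, chemokines and matrix proteins and presents them to their receptors. SULF1 and SULF2 are secreted enzymes that remove 6-O-sulfate groups from finished heparan sulfate outside the cell and so change which ligands it binds. Hyaluronan is a long sugar chain without a core protein that hyaluronan synthases extrude at the plasma membrane, and CD44 is its main cell-surface receptor. In endometrial and other carcinomas these molecules are studied for their part in adhesion, growth factor signalling and stem-like behaviour.

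The 6 libraries were similar in size, with 14786 to 15386 genes above 0 and scaling factors from medians of gene ratios between 0.993 and 1.02. Depth relative to high-potential replicate 1, recovered from the steps between low values, was 0.807 to 1.07. Values of each group are given with replicate 1 first. ALDH1A1, the aldehyde dehydrogenase gene of the design text, was 353 and 304 FPKM (fragments scaled to transcript length and library size) in the high-potential libraries. It was 26.7 and 317 in parental accelerated cells and 28.4 and 9.44 in high-to-low cells, so the parental accelerated replicates lie far apart. Of 6 epithelial markers 5 reached 1 FPKM, and CDH1, the E-cadherin gene, stayed at or below 0.0868 FPKM in all 6 libraries. None of 6 fibroblast, 5 endothelial and 6 leukocyte markers reached 1 FPKM in any library; the highest was CDH5 at 0.92. Among them COL3A1, DCN, PECAM1, CD3E and MS4A1 are listed at 0 throughout. The summed fibroblast markers were 0.414 to 0.603 FPKM in high-potential, 0.12 to 0.419 in parental accelerated and 0.257 to 0.414 in high-to-low libraries. In the same order the summed endothelial markers were 0.231 to 1.07, 0.117 to 0.319 and 0.118 to 0.168 FPKM, the leukocyte markers 0.83 to 1.02, 0.14 to 0.664 and 0.77 to 0.939, and the epithelial markers 546 to 632, 620 to 735 and 663 to 668. Most of the epithelial sum is KRT18 and PAX8, so it hides differences of single markers. KRT8 was 49.4 and 47.1 FPKM in the high-potential pair and 90.6 to 108 in the parental groups. EPCAM was 3.49 and 2.16 FPKM against 4.43 to 10.6, while KRT18, KRT19 and PAX8 overlapped between groups. No source says that replicates were separate cultures, so the spread between them may be technical.

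The genes fell into 3 levels. SDC4, SDC2, CD44, SDC1, SDC3 and GPC1 had means over the 6 libraries of 37.7, 28.6, 20.0, 14.6, 13.9 and 10.2 FPKM. HAS3 and SULF2 averaged 4.39 and 3.01 FPKM and were each near 0 in at least 1 group. SULF1 averaged 0.177 FPKM, and HAS2 is listed at 0 in every library. SDC1, CD44 and HAS3 were low in the high-potential libraries, SULF2 and GPC1 were high there, and SDC2, SDC3 and SDC4 showed no such split. Of the first 5, GPC1 and HAS3 did not pass the threshold in the comparisons that follow. FPKM is scaled to transcript length, so these levels can be set beside each other, with the limit that the isoforms behind each gene are not resolved.

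**Figure D1:**
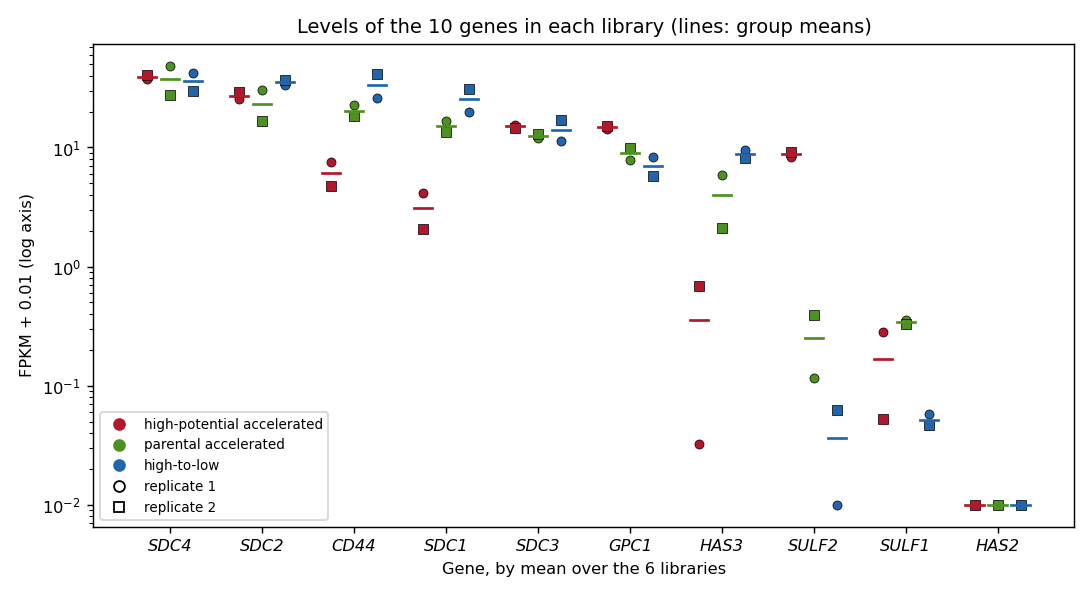
Levels of the 10 genes in FPKM on a log axis, with 0.01 added so that values of 0 can be drawn, ordered by their mean over the 6 libraries. Circles are replicate 1, squares replicate 2 and short lines group means; the high-potential points (red) of SDC1, CD44 and HAS3 lie below all others of the gene and those of SULF2 and GPC1 above.

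SDC1, the epithelial syndecan, was lowest in the high-potential libraries. Its level was 4.13 and 2.07 FPKM in the high-potential pair, 16.7 and 13.5 in parental accelerated cells and 20.0 and 31.1 in high-to-low cells. The libraries of the 3 groups did not overlap, and the order from high to low was high-to-low, parental accelerated, high-potential. The mean was 3.10 ± 1.46 FPKM (SD, n = 2) in high-potential cells against 25.5 ± 7.89 (SD, n = 2) in high-to-low cells, an 8.24-fold difference. In bulk RNA, fewer cells with the transcript and less transcript per cell cannot be told apart. In the model fitted across all genes (limma on log2(FPKM + 1), Benjamini-Hochberg adjustment), SDC1 fell by 2.71 on the log2 scale (standard error, SE, 0.337, adjusted p = 0.0334). Against parental accelerated cells at 15.1 ± 2.28 FPKM (SD, n = 2) the fitted log2 difference came to -2.01 (SE 0.337; limma, adjusted p = 0.0811), which did not pass the threshold of 0.05. The description numbers of replicate 1 of both accelerated groups start alike, as do those of replicate 2, and within these pairs the differences were -1.79 and -2.24. Both high-to-low numbers start like those of replicate 1, so this start is unbalanced in every comparison with high-to-low cells. High-potential replicate 1 alone differed from the high-to-low mean by -2.34. With a term for that start of the number in the model the limma adjusted p against parental accelerated cells was 0.0448, and it was under 0.05 in 2 of 17 alternative settings. The parental groups, neighbours in the order, differed by -0.70 with a 95% interval of -1.51 to 0.12. The call against high-to-low cells was lost without any 1 of the 4 libraries compared. It was also lost without a filter on low values.

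The other syndecans showed no such split. SDC4, a broadly expressed syndecan of focal adhesions, was 37.6 and 40.5 FPKM in the high-potential pair, 48.4 and 27.3 in parental accelerated cells and 42.3 and 30 in high-to-low cells. The high-potential values lay inside the range of both other groups. SDC2, a syndecan known best from mesenchymal and neural cells, was 25.5 and 29.1 FPKM, 30.1 and 16.7, and 33.5 and 37.0 in the same order. Both high-to-low libraries were above the other 4 for this gene. SDC3, known best from the nervous system, was 15.5 and 14.7 FPKM, 12.0 and 12.9, and 11.2 and 17.1. The high-potential values of SDC3 were above both parental accelerated values and within the high-to-low range. For high-potential minus high-to-low cells the limma 95% intervals of the log2 difference were -0.63 to 0.88 for SDC4, -1.06 to 0.35 for SDC2 and -0.46 to 0.70 for SDC3. Differences within those intervals are compatible with these libraries, and no comparison of the 3 genes passed the threshold. The intervals are not adjusted for the number of genes, so they do not say what size of change would have passed. The signs of the small SDC3 and SDC4 differences turned with single libraries left out.

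SDC1 made up a smaller share of the syndecans in the high-potential libraries. The summed syndecan level was 82.7 and 86.4 FPKM in the high-potential pair, 107 and 70.3 in parental accelerated cells and 107 and 115 in high-to-low cells. SDC1 made up 4.99 and 2.4% of that sum in the high-potential libraries, 15.6 and 19.1% in parental accelerated cells and 18.7 and 27.0% in high-to-low cells. SDC4 made up 45.5 and 46.9%, 45.1 and 38.9%, and 39.5 and 26.1% in the same order. The SDC1 share was lower in both high-potential libraries than in any other library; it moves with the SDC1 level above and is no separate test.

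**Figure D2:**
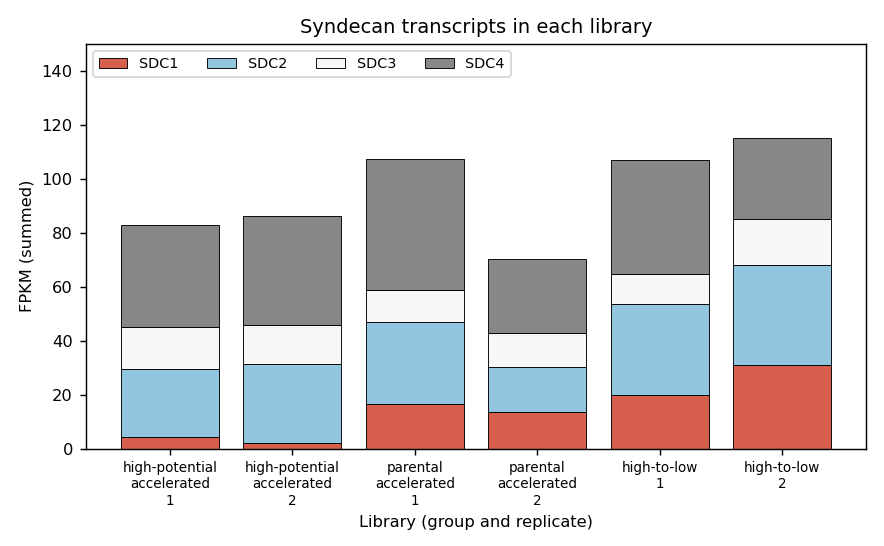
Stacked bars of SDC1, SDC2, SDC3 and SDC4 in FPKM for each of the 6 libraries, labelled by group and replicate. The red SDC1 segment is 4.13 and 2.07 FPKM in the high-potential pair and 13.5 to 31.1 FPKM in the other 4, while the full bars lie between 70.3 and 115 FPKM.

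GPC1, the only glypican of the genes chosen, was highest in the high-potential libraries. It was 14.2 and 15.3 FPKM there, 7.89 and 9.94 in parental accelerated cells and 8.35 and 5.70 in high-to-low cells. The high-potential values were above the other 4, and the parental groups overlapped. The mean of 14.7 ± 0.775 FPKM (SD, n = 2) was 2.09 times that of high-to-low cells, and the difference was 0.99 in log2 units (SE 0.245, limma adjusted p = 0.116). Against parental accelerated cells the fitted log2 difference came to 0.67 (SE 0.245; limma, adjusted p = 0.294), and neither passed the threshold. GPC1 made up 60.2 and 68.6% of the summed glypican FPKM in high-potential, 75.9 and 53.3% in parental accelerated and 80.4 and 75.2% in high-to-low libraries.

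Most of the rest of the glypican sum was GPC4, named here after its values were seen. Levels were 6.19 and 5.24 FPKM in the high-potential pair, 1.92 and 7.87 in parental accelerated cells and 1.67 and 1.58 in high-to-low cells. Its low parental accelerated library is replicate 1, which is also the one with ALDH1A1 at 26.7 FPKM. SDC2, SDC4 and HAS3 were higher in that library than in replicate 2. With 1 library a side, a relation to ALDH1A1 was not tested. No comparison of GPC4 passed the threshold (lowest limma adjusted p = 0.233). GPC3, also named after the fact, was 2.28 and 1.04 FPKM in the high-potential pair and at or below 0.205 in the other 4. Unlike GPC4, it reached the filter on low values only through the high-potential pair, so no test of it is given.

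SULF2, which acts on heparan sulfate outside the cell, had the largest log2 difference of the 8 tested genes in both comparisons of high-potential cells with another group. Levels were 8.32 and 9.19 FPKM in the high-potential pair, 0.106 and 0.379 in the parental accelerated libraries, and 0.0527 in high-to-low replicate 2 and listed at 0 in replicate 1. Both high-potential values were far above the other 4. SULF2 rose by 3.25 on the log2(FPKM + 1) scale against high-to-low cells (SE 0.243, limma adjusted p = 0.00693). Against parental accelerated cells it rose by 2.98 (SE 0.243, limma adjusted p = 0.0101), from a mean of 0.242 to 8.76 FPKM. SULF2 passed the filter on low values only through the high-potential libraries, so neither adjusted p is read as support. The pairs of like description number gave 3.08 and 2.89. High-potential replicate 1 differed by 3.18 from the mean of the high-to-low libraries, whose numbers start alike. With 1 FPKM added before the log, the log2 values understate the change of a gene this low.

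The depth behind the low SULF2 values is small. Multiplied by relative depth, the value in parental accelerated replicate 1 was 2 times, and that in replicate 2 was 7 times, the value of high-to-low replicate 2, which is the lowest above 0. The high-potential libraries stood at 169 and 151 times that step. SULF2 passed the filter on low values only through the high-potential libraries, so among tested genes it had to differ. Without either high-potential library it failed the filter and could not be fitted. Without high-to-low replicates 1 and 2 the limma adjusted p against high-to-low cells was 0.0573 and 0.0561. With 0.1 in place of 1 as pseudocount the difference from parental accelerated cells was 4.82 with a limma adjusted p of 0.0701.

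SULF1, the other 6-O-endosulfatase, was low throughout. Levels were 0.272 and 0.0422 FPKM in the high-potential pair, 0.347 and 0.318 in parental accelerated cells and 0.0475 and 0.0364 in high-to-low cells. The parental accelerated values were the highest and the high-to-low values overlapped with high-potential replicate 2. In steps of the lowest depth-scaled value, these were 8 and 1, 9.5 and 8.5, and 1.5 and 1. SULF1 did not pass the filter; in the fit without a filter its log2 difference between the parental groups was 0.36 (SE 0.107, limma adjusted p = 1). The sum of SULF1 and SULF2 was 8.59 and 9.23 FPKM in high-potential libraries, 0.453 and 0.697 in parental accelerated and 0.0475 and 0.089 in high-to-low libraries.

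HAS3, which makes hyaluronan at the plasma membrane, was the only synthase with a level above 1 FPKM. Levels were 0.0227 and 0.674 FPKM in the high-potential pair, 5.89 and 2.12 in parental accelerated cells and 9.50 and 8.14 in high-to-low cells. The 3 groups did not overlap and their order was that of SDC1. The means were 0.348 ± 0.461, 4.01 ± 2.67 and 8.82 ± 0.961 FPKM (SD, n = 2 each), with the replicates of both accelerated groups far apart. The log2 difference between high-potential and high-to-low cells was -2.90 (SE 0.437, limma adjusted p = 0.0543), just outside the threshold; it was under 0.05 in 6 of 17 alternative settings, with adjusted p between 0.025 and 0.293. Against parental accelerated cells the fitted log2 difference came to -1.83 (SE 0.437, limma adjusted p = 0.146). HAS3 passed the filter on low values only through the parental libraries. A lower high-potential level was thus favoured among tested genes, and neither adjusted p is read as support. The pairs of like description number gave -2.75 and -0.90, a spread larger than that of SDC1. Parental accelerated minus high-to-low cells gave -1.08 (SE 0.437, unadjusted p = 0.0467, limma adjusted p = 1).

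The reads of HAS3 may be shared with a neighbour. In RefSeq its extent overlaps the protein-coding genes TANGO6 and DERPC, not analysed here, and CHTF8, a gene of replication clamp loading that is expressed far higher, and the library kit does not record strand. CHTF8 was 43.0 and 40.2 FPKM in the high-potential pair, 72.7 and 78.5 in parental accelerated cells and 73.7 and 56.8 in high-to-low cells. Its part in the HAS3 values was not tested. SDC1, SDC2, GPC1, SULF2 and CD44 overlap noncoding genes in RefSeq, and SDC3, SDC4 and SULF1 overlap none. HAS2, the synthase most often induced by growth factors, is listed at 0 in all 6 libraries, as is its antisense gene HAS2-AS1. An exact 0 in a table of FPKM can be a failed estimate, so HAS2 gets no fold and no test. HAS1, the remaining synthase, stayed between 0.0517 and 0.16 FPKM.

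CD44, the hyaluronan receptor, was lowest in high-potential cells, with 7.54 and 4.72 FPKM. The level was 22.6 and 18.2 in parental accelerated cells and 25.9 and 41.1 FPKM in high-to-low cells, and the 3 groups did not overlap. CD44 fell by 2.27 in log2 units against high-to-low cells (SE 0.312, limma adjusted p = 0.044), from 33.5 ± 10.7 to 6.13 ± 2 FPKM (SD, n = 2 each). Against parental accelerated cells at 20.4 ± 3.10 FPKM (SD, n = 2) the fitted log2 difference came to -1.61 (SE 0.312; limma, adjusted p = 0.106), which was under 0.05 in 1 of 17 alternative settings. The pairs of like description number gave -1.47 and -1.75. High-potential replicate 1 differed by -1.98 from the mean of the high-to-low libraries, whose numbers start alike. The parental groups differed by -0.66 with a 95% interval of -1.42 to 0.09. The call was near the threshold: it was kept in 7 of 17 alternative settings, with limma adjusted p between 0.0209 and 0.302. It was lost without either high-potential library, either high-to-low library or parental accelerated replicate 2. With the term for the description number it was lost as well (limma adjusted p = 0.0667). Other losses came without a filter on low values, with a filter on the mean, with a pseudocount of 0.1 and with only the groups compared.

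CD44 and SDC1 kept nearly the same proportion to each other in the parental libraries. The ratio of their FPKM was 1.35 in both parental accelerated libraries and 1.30 and 1.32 in high-to-low cells. It was 1.83 and 2.28 in the high-potential libraries, so there SDC1 was lower relative to CD44. CD44 is spliced into many isoforms, which the gene-level values do not separate.

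**Figure D3:**
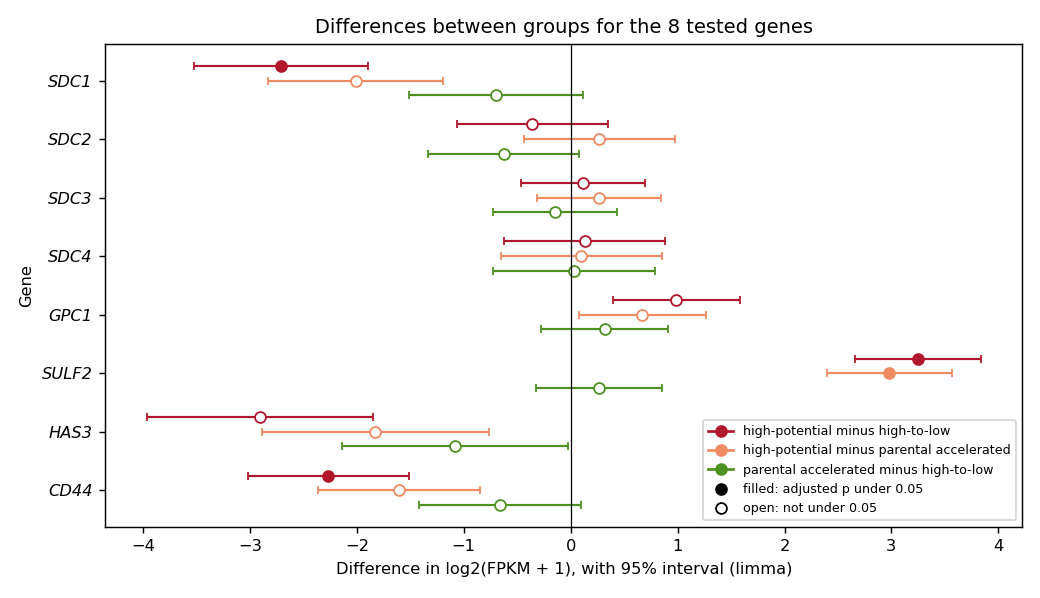
Differences in log2(FPKM + 1) between groups for the 8 tested genes with limma 95% intervals; filled points have an adjusted p under 0.05. SDC1, CD44 and HAS3 lie left of 0 and SULF2 and GPC1 right of it in both comparisons with high-potential cells, and intervals of SDC2, SDC3 and SDC4 cover 0 in each of the 3 comparisons drawn.

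Over the comparisons, 3 of the 8 tested genes passed between high-potential and high-to-low cells, SULF2 higher and SDC1 and CD44 lower, where 0.799% of all 12135 tested genes passed, 0.396% higher and 0.404% lower. SULF2 entered the tested genes only through its high-potential values, so its call was favoured by the filter and nothing is read from counts that include it. The same holds for counts that set high-potential cells apart and include HAS3, which entered only through its parental values. Between high-potential and parental accelerated cells 1 of 8 passed, SULF2, against 0.494% of all genes, of which higher ones were 0.288%; as SULF2 is the only gene in that count, nothing is read from it. The 4 comparisons share libraries with each other. Between the parental groups 0 of 8 passed in limma, against 0.0165% of all genes. At an unadjusted p under 0.05 there was 1 of the 8 (HAS3), against 118 of all 12135 genes. For the mean of both accelerated groups against high-to-low cells 0 of 8 passed in limma, against 0.0659% of all genes. At an unadjusted p under 0.05 there were 5 of the 8, SULF2 included, against 1122 of all 12135 genes. The log2 differences there were 1.76 for SULF2 (limma adjusted p = 0.1), -1.99 for HAS3 (0.342), -1.70 for SDC1 (0.31), -1.46 for CD44 (0.33) and 0.65 for GPC1 (0.485). The mean includes the high-potential group. Between the parental groups alone the differences were 0.27, -1.08, -0.70, -0.66 and 0.32 in the same order. Both high-potential libraries lay outside the range of the other 4 for 5 of the 8 genes, 2 above and 3 below. That was so for 32.8% of all tested genes, 15.3% above and 17.5% below. Groups were fully apart for 6 of 8 genes between high-potential and high-to-low (51.1% of all genes), 6 between high-potential and parental accelerated (43.4%), 5 between the parental groups (24.1%) and 5 for the accelerated mean (13%). The share of all genes was high between high-potential cells and either parental group, and lower in the other comparisons. The 5 between the parental groups include SULF2, at 2 and 7 depth-scaled steps against 0 and 1. With 8 genes the counts describe these genes and no more.

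Among the other genes of heparan sulfate and hyaluronan, 109 were listed in the files and 63 were tested, and in limma 0 passed in any of the 4 comparisons. At an unadjusted p under 0.05 there were 13 between high-potential and high-to-low, 10 between high-potential and parental accelerated, 0 between the parental groups and 8 for the accelerated mean. Over all 12135 tested genes these counts were 2233, 1738, 118 and 1122, so the pathway genes lay near the background. Their median log2 difference between high-potential and high-to-low cells was -0.03, beside -0.01 for all tested genes.

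No gene of chain synthesis, modification or breakdown passed. EXT1 and EXT2, the copolymerases that build heparan sulfate, were 29.7 and 27.6 and 41.4 and 40.8 FPKM in the high-potential pair. In the other 4 libraries EXT1 was 18.9 to 26.7 and EXT2 24.4 to 37.6 FPKM. Against high-to-low cells the log2 differences were 0.42 (95% interval -0.09 to 0.93) and 0.32 (-0.27 to 0.90). HS2ST1, the 2-O-sulfotransferase, was 18 and 19.4 FPKM in the high-potential pair and 19.9 to 21.6 in the other 4 libraries. HS6ST1, which adds the 6-O-sulfate that SULF1 and SULF2 remove, was 23.6 and 23.3 FPKM in the high-potential pair, 64.3 and 18.2 in parental accelerated cells and 66.8 and 27.8 in high-to-low cells. Its spread within each parental group was larger than its difference between groups (limma adjusted p = 0.527 against high-to-low cells). GUSB, a lysosomal enzyme of glycan breakdown, was 44.9 to 78.5 FPKM. CHPF and CHPF2, which act in chondroitin sulfate synthesis, were 15.1 to 24.4 and 9.88 to 33.6 FPKM.

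Among cores, precursors, sheddases and partners no gene passed. COL18A1, a basement membrane core protein, was 55.7 and 33.1 FPKM in the high-potential pair and 16.8 to 35 in the other 4, and AGRN, the agrin gene, was 3.06 to 7.28 FPKM in all 6. UGDH, which makes the UDP-glucuronic acid used for both glycans, was 219 and 185 FPKM in the high-potential pair, 120 and 196 in parental accelerated cells and 122 and 114 in high-to-low cells. Like GPC4, it was low in parental accelerated replicate 1 and high in replicate 2 (against high-to-low cells, limma adjusted p = 0.213 in the high-potential group). UGP2, which supplies UDP-glucose, was 58.8 to 77.3 FPKM. ADAM9, a membrane protease, was 298 and 238 FPKM in the high-potential pair and 136 to 205 in the other 4 (log2 difference 0.90 against high-to-low cells, limma adjusted p = 0.152). ADAM10, a sheddase of CD44 and syndecans, was 115 to 228 FPKM. SDCBP, whose product syntenin binds syndecan tails, was 484 and 414 FPKM in the high-potential pair and 347 to 371 in the other 4. MSN, the moesin gene of the family that links CD44 to actin, was 117 and 120 FPKM against 146 to 160.

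VCAN, the chondroitin sulfate proteoglycan versican that binds hyaluronan and CD44, had the largest log2 difference of the tested pathway genes between high-potential and high-to-low cells. Levels were 3.46 and 0.257 FPKM in the high-potential pair, 102 and 27.4 in parental accelerated cells and 96.4 and 63.8 in high-to-low cells. Both high-potential values were below the other 4. The log2 difference was -5.07 against high-to-low cells (SE 0.774, limma adjusted p = 0.0561, under 0.05 in 6 of 17 alternative settings) and -4.52 against parental accelerated cells (SE 0.774, limma adjusted p = 0.0846). VCAN passed the filter on low values only through the parental libraries. A lower high-potential level was thus favoured among tested genes, and neither adjusted p is read as support. The pairs of like description number gave -4.54 and -4.50. HMMR, an intracellular hyaluronan-binding protein of the mitotic spindle, was 25.8 and 41.4 FPKM in the high-potential pair, 47.6 and 118 in parental accelerated cells and 51.0 and 110 in high-to-low cells (limma adjusted p = 0.318 against high-to-low cells). HYAL2, a hyaluronidase at the cell surface named after its values were seen, was 33.9 and 36.2 FPKM in the high-potential pair and 54.7 to 63.8 in the other 4 (log2 difference -0.80 against high-to-low cells, SE 0.169, limma adjusted p = 0.0911).

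**Figure D4:**
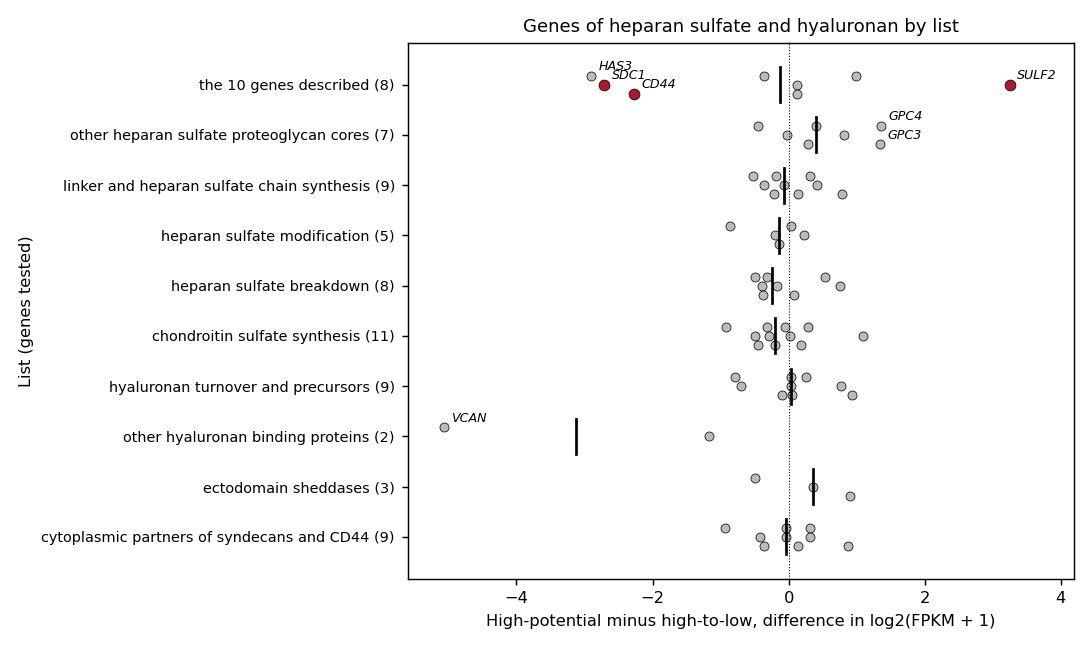
Difference in log2(FPKM + 1) between high-potential and high-to-low cells for each tested gene of the 10 described genes and of 9 pathway lists, with black bars at list medians and red points at an adjusted p under 0.05. Heights within a row only separate points; VCAN at -5.07 is the farthest from 0, and no point of the pathway lists is red.

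Likeness was measured as the root mean square difference between profiles of log2(FPKM + 1) centred over the 6 libraries, against 10095 other genes with a mean of at least 3 FPKM. It is a description over 6 libraries in 3 groups, and genes with the same split of high-potential from other libraries score alike. The nearest profile to SDC1 was that of CD44 (0.205), followed by PHLDA2 (0.307) and DPYD (0.322), and the nearest to CD44 was SDC1 (0.205), followed by NME4 (0.223) and COMTD1 (0.229). HAS3 was nearest to OLFML1 (0.301), FANK1 (0.354) and IL17RB (0.433), with SDC1 at rank 21 and CD44 at rank 25. SULF2 was nearest to NREP (0.22), STRA6 (0.243) and METRNL (0.255). GPC1 was nearest to ITGAV (0.0626), WDR33 (0.0702) and SAV1 (0.0824). SDC2 was nearest to SLC25A4, SCFD2 and TMEM234, SDC3 to SERGEF, LSM12 and ALG14, and SDC4 to NUAK2, INTS3 and UBXN6.

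The 250 bases before the transcription start are shown for the 3 genes that were low in high-potential cells and for SULF2, which was high there, so that letters shared by genes of one pattern can be seen beside the other. The sequences are from RefSeq (GRCh38.p14, not the hg19 build of the files) and are 5′ to 3′ on the strand of the gene. They lie at chr2:20225131-20225380 (minus strand) for SDC1, chr11:35138921-35139170 (plus strand) for CD44, chr16:69107290-69107539 (plus strand) for HAS3 and chr20:47786628-47786877 (minus strand) for SULF2. RefSeq gives 2 starts for SDC1 and 4 for SULF2. The outermost start within 40 bases of a GENCODE transcript start was taken, and the start used by these cells is not known. Capitals mark matches to the searched motifs on either strand.
SDC1: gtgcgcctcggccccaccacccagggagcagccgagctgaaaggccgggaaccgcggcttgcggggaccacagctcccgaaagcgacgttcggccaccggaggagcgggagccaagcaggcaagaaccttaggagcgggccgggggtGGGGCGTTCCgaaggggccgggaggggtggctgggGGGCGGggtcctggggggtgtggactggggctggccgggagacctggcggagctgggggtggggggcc
CD44: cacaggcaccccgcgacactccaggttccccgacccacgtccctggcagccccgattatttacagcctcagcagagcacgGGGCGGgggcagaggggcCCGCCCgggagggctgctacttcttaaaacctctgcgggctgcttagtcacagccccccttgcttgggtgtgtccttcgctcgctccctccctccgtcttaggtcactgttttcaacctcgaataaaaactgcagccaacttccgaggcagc
HAS3: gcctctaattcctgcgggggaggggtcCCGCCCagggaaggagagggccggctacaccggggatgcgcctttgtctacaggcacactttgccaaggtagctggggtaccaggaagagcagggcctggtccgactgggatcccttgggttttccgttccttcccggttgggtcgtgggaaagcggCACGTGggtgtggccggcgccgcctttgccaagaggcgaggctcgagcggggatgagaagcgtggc
SULF2: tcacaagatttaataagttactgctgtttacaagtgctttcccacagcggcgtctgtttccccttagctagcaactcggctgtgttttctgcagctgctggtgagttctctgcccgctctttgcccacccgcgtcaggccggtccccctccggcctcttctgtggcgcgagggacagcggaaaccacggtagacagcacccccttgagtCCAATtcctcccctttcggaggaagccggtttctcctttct
The motifs searched on both strands were GGGCGG for the GC box, TATAAA for the TATA box, CCAAT for the CCAAT box, TGANTCA for AP-1 sites, CACCTG for the E-box of Snail and ZEB factors, CACGTG for the E-box of MYC, and the kappa B motif. SDC1 held 1 GC box and 1 kappa B match, which lie apart, at 68 and 103 bases before the start. CD44 held 2 GC boxes, HAS3 1 GC box and 1 CACGTG, and SULF2 1 CCAAT. Of all 35116 windows of that length, 42.6% held a GC box, 9.96% a kappa B match, 6.34% CACGTG and 32.0% CCAAT. The TATA box (10.7% of windows), the AP-1 motif (6.57%) and the CACCTG E-box (17.5%) were found in none of the 4 windows. A match is a description of letters, and the 3 genes that were low in high-potential cells shared the GC box, which is common, and no other of these motifs. The GC content was 75.2% for SDC1, 62.4% for CD44, 66.0% for HAS3 and 56.8% for SULF2.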

How the data were processed

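Bulk RNA from 6 HEC-1B libraries (3 groups of 2) was sequenced from SMART-Seq v4 cDNA and Nextera libraries, per the labels' protocols. The authors deposited 1 FPKM value per gene symbol and library; TopHat2 2.0.13, Cuffnorm 2.2.1 and hg19 are named in the submitters' processing notes. The annotation is not given in the sources used here, nor is the library scaling, and total counts are unknown. The 12135 genes that reached 1 FPKM in 2 or more libraries were fitted as log2(FPKM + 1) with limma 3.58.1 (R 4.3.3, variance trend, 6 libraries, 3 residual degrees of freedom), with Benjamini-Hochberg adjustment over all of them. Log2 differences are on that scale and understate the change of low genes, while folds in the text are ratios of mean FPKM. The fitting step was also run on simulated data with normal noise and no structure between replicates. That run does not bear on how stable the calls are here. With 2 libraries against 2 an exact permutation test cannot go below 0.333, so none was run. Relative depth came from ratios of values under 0.3 FPKM, within 3%.

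The 10 genes, the pathway lists and the tests were chosen with earlier results of these data known. Named genes are the 10, ALDH1A1, called pathway genes and the 2 highest of each pathway list by mean, of which 1 is not reported here; GPC3, GPC4, HYAL2 and CHTF8 were added after their values were seen. Likeness names the 3 nearest genes of each tested gene. What the description numbers are is not explained by the labels. There were 17 alternative settings. Sequences are RefSeq's, matched by symbol for SDC1, SDC3, SDC4, GPC1, SULF2, HAS3 and CD44 (7 of 10).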

Additional observations from a re-analysis of the deposited data

How the results depend on the processing

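Of 528 values of single genes over the alternatives, 487 kept their direction and side of the threshold, 18 lost the call, 9 gained it and 14 turned sign. The count of the 10 genes passing between high-potential and high-to-low cells was 3, and 1 without a filter on low values. It was 0 to 4 with 1 library left out: 0 without either high-potential or either high-to-low library. Between high-potential and parental accelerated cells it was 1, and 0 with a pseudocount of 0.1, 2 with a term for the description number, and 0 to 1 with 1 library left out, with 0 without either high-potential library.

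Replicates share only a number, and no label calls it a pairing; deviations of like-numbered libraries correlated at 0.187, 0.158 and 0.281 across genes in the 3 pairs of groups. With the replicate block the count was 4 against high-to-low cells, where HAS3 joined (limma adjusted p = 0.025), and 3 against parental accelerated cells, where SDC1 (0.0394) and CD44 (0.0493) joined.

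Sign changes concerned small differences of SDC2, SDC3 and SDC4. For SDC3 in the accelerated mean against high-to-low cells (-0.01) they were 0.013 with quantile normalization, 0.058 without small RNA genes and -0.30 to 0.27 with 1 library left out. With 1 library left out SDC3 ranged from -0.16 to 0.40 (high-potential against high-to-low) and -0.43 to 0.14 (between the parental groups). SDC4 ranged from -0.11 to 0.37, -0.30 to 0.50 and -0.37 to 0.43 in the comparisons of high-potential with high-to-low, high-potential with parental accelerated and the parental groups, and -0.16 to 0.32 in the accelerated mean. SDC2 ranged from -0.14 to 0.68 between high-potential and parental accelerated cells.

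All genes passing between high-potential and high-to-low cells numbered 97, and 54 with a pseudocount of 0.1, 45 without a filter, 56 with a filter on the mean, 54 with the description number, 944 with the replicate block and 3 to 129 with 1 library left out. Between high-potential and parental accelerated cells 60 passed, and 31 with a pseudocount of 0.1, 39 with only these groups, 105 with the description number, 546 with the block and 4 to 39 with 1 library left out. Between the parental groups 2 passed, and 4 with a pseudocount of 0.1, 35 without a filter, 7 with only these groups or the description number, 0 without small RNA genes and 2 to 7 with 1 library left out. For the accelerated mean 8 passed, and 41 without a filter, 17 with the block, 15 with the description number, 1 without small RNA genes and 4 to 14 with 1 library left out. The causes were not tested. Total counts are unknown, and depth limits most the values of SULF1, SULF2 and HAS3 that lie a few steps above 0.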
